A study of Mus musculus with 17 samples.

Results

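The genes described here encode the nuclear subunits of respiratory complexes II, III, IV and V. They were chosen by symbol alone: Sdha, Sdhb, Sdhc and Sdhd, and every symbol that starts with Uqcr, Cox4, Cox5, Cox6, Cox7, Cox8 or Atp5, leaving out symbols with -ps. The rule gave 48 of the 48440 genes in the table, 4 of complex II, 8 of complex III, 19 of complex IV and 17 of complex V, and left out 6 with -ps symbols. The mice were C57BL/6J males of 189 days, and RNA was taken from frontal cortex. The Poly(I:C) group held 9 offspring whose dams had received 20 mg/kg of Poly(I:C) by intraperitoneal injection on G12.5 (gestational day), and the saline group held 8 offspring of dams given saline alone. The agent, a double-stranded RNA made synthetically, triggers antiviral innate immunity, so the dams model an immune response in pregnancy. The labels mention 11 dams and do not tie pups to litters, so the p-values treat every animal as independent. Levels are in TPM, a unit that corrects for transcript length and sums to the same total in every library. Unless stated otherwise, a pair of group values is mean ± SD, first over the Poly(I:C) libraries (n = 9) and then over the saline libraries (n = 8).

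The respiratory chain of the inner mitochondrial membrane passes electrons to oxygen and pumps protons, and ATP synthase uses the proton gradient to make ATP. Complex II feeds in electrons from succinate, complex III passes them from ubiquinol to cytochrome c, complex IV hands them to oxygen, and complex V is ATP synthase. Complex II is encoded in the nucleus alone, while complexes III, IV and V combine nuclear subunits with a few from the mitochondrial genome. Cortical neurons draw most of their ATP from this pathway, and fast-spiking interneurons are known for a high demand.

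All 48 genes lie on nuclear chromosomes in GENCODE M21, and 47 are annotated as protein-coding. Cox6c2, a copy of the subunit 6C gene, is annotated as a processed pseudogene. Atp5s encodes coupling factor B, and Cox7a2l a factor that joins complexes into supercomplexes, so neither is a structural subunit in the narrow sense. Cyc1, a subunit of complex III, and Ndufa4, now placed in complex IV, carry other names and fall outside the rule.

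The promoters of the members were read for the letters bound by 3 factors known to act on respiratory genes. RefSeq windows on GRCm38.p6, from 250 bases before to 50 after a transcription start, were found for 36 of the 48 members. The NRF1 core GCGCATGC, searched on both strands, lay in windows of 7 of 36 members (19.4%) and of 3.05% of 27025 genes. These were Sdhb, Uqcr11, Uqcrc1, Cox6a1, Atp5g2, Atp5k and Atp5l. The ETS letters CCGGAAGT bound by GABP lay in 4 members (11.1%, beside 4.31%), Uqcr11, Uqcrh, Cox8a and Atp5h. The YY1 letters AAGATGGC lay in 3 members (8.33%, beside 3.19%), Atp5f1, Atp5j and Atp5j2. Windows were not matched for base composition, and a match of letters does not show binding.

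The following stretches of 30 bases give the surroundings of the NRF1 letters, by which they were selected, in the 5 members whose match lies wholly before the RefSeq start. Among them is Atp5k, the member with the smallest p between the groups (limma adjusted p = 0.537). A relation of the letters to the group differences was not tested. The match of Uqcr11 spans the start and that of Uqcrc1 lies after it, and neither is shown. Each is written 5′ to 3′ on the strand of its gene, with the matched letters in capitals. In Atp5g2, Atp5k and Cox6a1 the forward and the reverse match overlap, and the forward one is capitalised.
Sdhb, chr4:140961206-140961235: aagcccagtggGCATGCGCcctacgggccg
Cox6a1, chr5:115349102-115349131: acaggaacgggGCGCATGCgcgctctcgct
Atp5k, chr5:108434431-108434460: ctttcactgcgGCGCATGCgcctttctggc
Atp5g2, chr15:102671071-102671100: tggctccggccGCGCATGCgcagagccttc
Atp5l, chr9:44920963-44920992: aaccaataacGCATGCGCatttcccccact
Sdhb lies on the forward strand and the other 4 genes on the reverse strand. The matches begin 54, 162, 50, 42 and 240 bases before the RefSeq start of Sdhb, Cox6a1, Atp5k, Atp5g2 and Atp5l. GENCODE M21 places some starts elsewhere. There Sdhb starts at 140961203 and Atp5g2 at 102672352, and both matches lie after these starts. The match of Atp5k spans its GENCODE start at 108434448.

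The labelled tissue was checked by markers. All 6 neuronal and all 5 astrocyte markers reached 1 TPM, and the glutamate transporter gene Slc17a7 stood at 775 ± 47.7 TPM and 799 ± 20.7 TPM. Libraries stood apart in neighbouring tissue. The 7 striatal markers summed to 214 TPM in Poly(I:C) replicate 7, where saline libraries reached 129 TPM at most, and the 6 oligodendrocyte markers to 3094 TPM, where saline libraries reached 2129 TPM. The 5 olfactory bulb markers summed to 45.9 TPM in saline replicate 7, where Poly(I:C) libraries reached 6.83 TPM. All 3 choroid plexus markers stayed below a mean of 1 TPM. Their sum was highest in Poly(I:C) replicate 7, at 5.84 TPM, where saline libraries reached 2.3 TPM. Without replicate 7 of both groups 0 members passed, and the median log2 difference over the members tested was -0.0074, beside -0.011 with all libraries. With all 17 libraries 0 members passed too, so this count cannot show whether the neighbouring tissue mattered.

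The members were abundant and steady transcripts in adult frontal cortex. A mean of at least 100 TPM was reached by 32 of 48, and 37 reached 50 TPM. The test needed 1 TPM or more in 8 or more libraries, and 45 of the 48 qualified. Their median level was 166 TPM, beside 13.8 TPM over the 14144 tested genes. The coefficient of variation over the 17 libraries had a median of 5.56% in these members and 9.73% over all tested genes. The median SE of the log2 difference was 0.0402 in these members and 0.0608 over all tested genes. In the 37 tested nuclear subunits of complex I, of median level 110 TPM, it was 0.0417. Genes were not matched for level. Summed over all 48, the Poly(I:C) libraries held 10025 ± 308 TPM and the saline libraries 10072 ± 271 TPM. Poly(I:C) replicate 5 had the lowest sum, 9465 TPM, and saline replicate 7 the highest, 10523 TPM. These 2 libraries also had the highest and the lowest share of TPM from mitochondrial genes and their nuclear copies, 42.7% and 36.5%, and the part of that share in the members' sums was not tested. As a share of the TPM left after those mitochondrial transcripts are taken out, the members held 1.67% ± 0.034 and 1.65% ± 0.034.

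**Figure D1:**
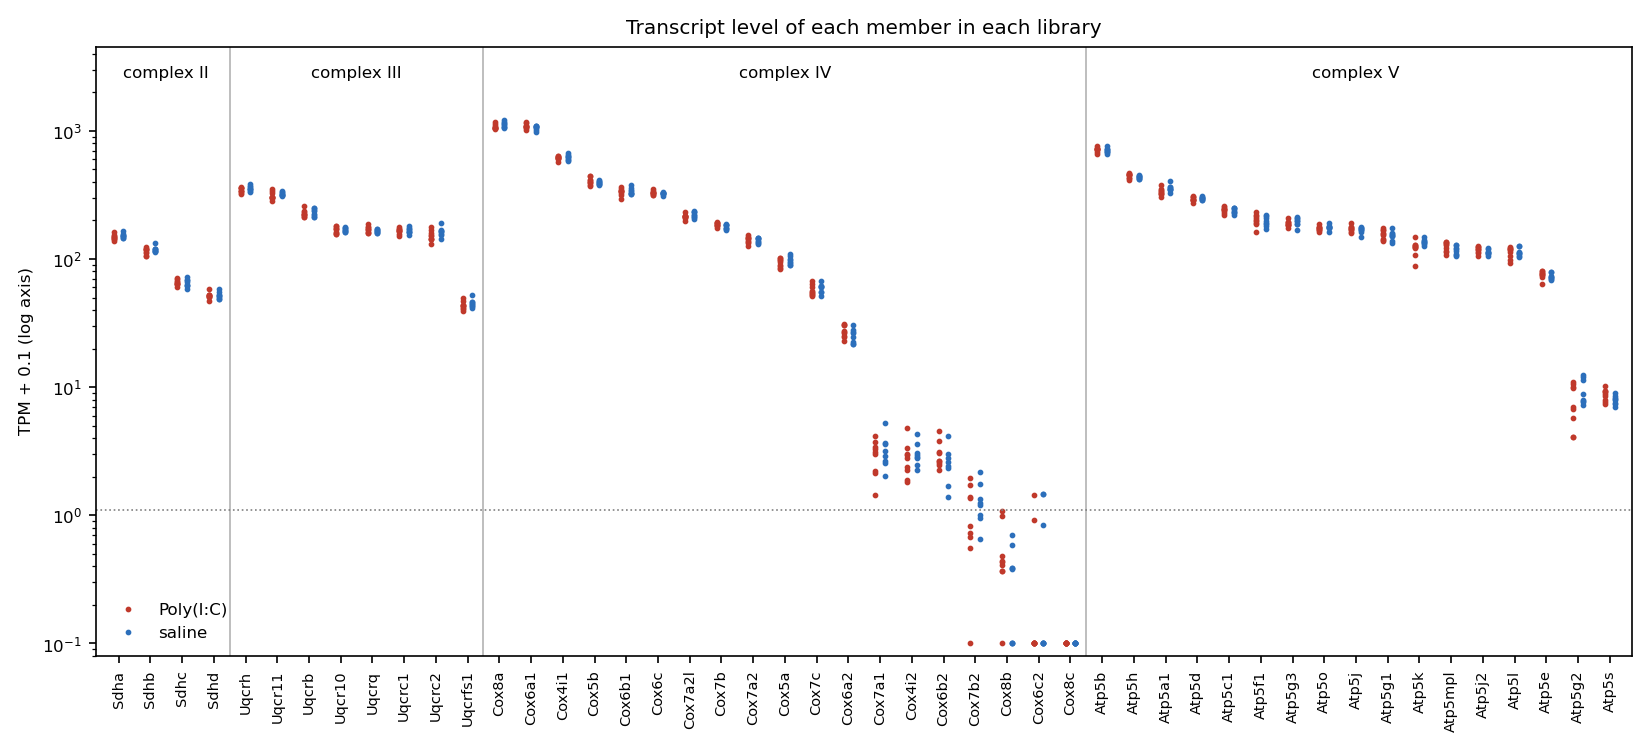
TPM + 0.1 on a log axis for each of the 48 members, ordered by level within each complex, with 1 point per library (9 Poly(I:C) in red, 8 saline in blue); the dotted line marks 1 TPM. Most members lie above 50 TPM with the groups intermixed, and 7 isoform genes or copies of complex IV, from Cox7a1 to Cox8c, have the lowest means, although single libraries of Cox7a1, Cox4i2 and Cox6b2 reach above the lowest of Atp5g2.

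In complex II, Sdha, the flavoprotein that oxidises succinate, ran from 138 to 162 TPM with a median of 147 in the Poly(I:C) group and from 145 to 166 with a median of 151 in the saline group. The groups overlapped, with 3 Poly(I:C) libraries below the lowest saline library. Sdhb, the iron-sulfur subunit, ran from 105 to 125 TPM (median 118) and from 112 to 133 TPM (median 117). The membrane anchors Sdhc and Sdhd were less abundant, Sdhc at 65.6 ± 3.19 and 65.1 ± 4.59 TPM and Sdhd at 51.7 ± 2.78 and 52.0 ± 3.17 TPM. On the per-length scale of TPM the catalytic subunits thus stood above the anchors in both groups.

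In complex III the hinge subunit gene Uqcrh was the most abundant, from 319 to 363 TPM (median 341) in the Poly(I:C) group and from 333 to 385 TPM (median 353) in the saline group. The Rieske iron-sulfur subunit gene Uqcrfs1 was the least abundant, at 43.4 ± 3.24 TPM and 44.9 ± 3.37 TPM. The core subunit genes Uqcrc1 and Uqcrc2, whose products form the matrix-facing core, stood close together. Uqcrc1 stood at 166 ± 7.85 and 167 ± 8.49 TPM and Uqcrc2 at 152 ± 14.4 and 163 ± 13.8 TPM. Uqcrc2 was the more variable of the pair, from 129 TPM in Poly(I:C) replicate 5 to 191 TPM in saline replicate 7.

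Complex IV held the most abundant members of all. Cox6a1, the common isoform of subunit 6A, ran from 1014 to 1173 TPM (median 1090) in the Poly(I:C) group and from 986 to 1094 TPM (median 1068) in the saline group. Cox8a, the common isoform of subunit 8, ran from 1024 to 1165 TPM (median 1059) and from 1056 to 1202 TPM (median 1120). The ranges overlapped in both genes, and the group with the higher median differed between them. Cox4i1, the common subunit 4 gene, followed at 614 ± 19.6 TPM and 618 ± 28.7 TPM. The remaining common subunits Cox5a, Cox5b, Cox6b1, Cox6c, Cox7a2 and Cox7b and the supercomplex factor Cox7a2l lay between 93.5 and 406 TPM in their group means.

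In complex V the catalytic F1 beta subunit gene Atp5b led, from 661 to 755 TPM (median 717) in the Poly(I:C) group and from 661 to 761 TPM (median 700.3) in the saline group. Atp5h, a subunit of the peripheral stalk, and Atp5a1, the F1 alpha subunit, followed, Atp5h at 445 ± 18.3 and 433 ± 11.7 TPM and Atp5a1 at 334 ± 20.2 and 358 ± 23.5 TPM. Atp5b exceeded Atp5a1 in every library, although the assembled F1 head holds the alpha and beta subunits in equal number. The other genes of the complex lay between 73.2 and 297 TPM in their group means, except the c-ring gene Atp5g2 and Atp5s, which lay below 10 TPM.

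For 4 members an abundant near-identical processed copy was listed elsewhere in the genome. Such copies were sought because RSEM divides reads that match several transcripts. These 4 members were singled out after their values were seen, and the part of the copies in their levels was not tested. Cox7c, a small subunit of complex IV, stood at 57.0 ± 5.68 TPM and 59.1 ± 4.91 TPM, far below the other common subunits. The processed pseudogene Gm12338, on chromosome 11 from 75599763 to 75599954 (GRCm38), matches a Cox7c transcript at 100% over all of its 192 bases and was listed at 1347 ± 78.0 TPM and 1374 ± 74.2 TPM. Cox7c summed with this copy and the minor copy Gm10012 reached 1408 ± 79.6 and 1436 ± 75.8 TPM, of which the copies made up 95.2% to 96.4% in every library. The model of Gm12338 is short, and TPM divides by length, so its value and the sum are not on the footing of a full-length transcript.

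The c-ring of ATP synthase is made from 3 genes, Atp5g1, Atp5g2 and Atp5g3, that encode the same mature protein. Atp5g2 ran from 3.97 to 10.9 TPM (median 6.95) in the Poly(I:C) group and from 7.16 to 12.3 TPM (median 8.32) in the saline group, with 5 Poly(I:C) libraries below all saline libraries. Its copy Gm10175, a transcribed processed pseudogene on chromosome 7 from 23946646 to 23947290, matches Atp5g2 at 100% over its 645 bases and was listed at 125 ± 7.49 TPM and 126 ± 7.21 TPM. Summed with the copy, Atp5g2 stood at 133 ± 6.33 TPM and 135 ± 7.05 TPM, and the coefficient of variation over the 17 libraries went from 30.5% to 4.90%. The log2 difference between the groups was -0.31 ± 0.178 (SE, limma adjusted p = 0.620) for Atp5g2 alone and -0.023 ± 0.036 (SE, limma adjusted p = 0.862) for the sum. Atp5g1 has the copy Gm10039, which made up 15.8% to 30.6% of their sum, and Atp5l, the membrane subunit g, has Gm10221, which made up 26.8% to 46.1%. The coefficient of variation of the sum against the member alone was 5.25% against 8.28% for Atp5g1, 5.64% against 8.42% for Atp5l and 5.40% against 9.09% for Cox7c. In the other 3 members with a copy of at least 1 TPM the copies made up at most 1.03% of the sum on average, and the values were 5.62% against 5.49% for Uqcr11, 4.88% against 4.86% for Cox5b and 6.11% against 6.22% for Uqcrb. For Atp5g2 and Cox7c the copies made up most of the sum, so its variation and group difference are mainly those of the copy. Where the copies made up little of the sum, the value could hardly change. How the reads were divided was thus not tested by these values. As listed and with the copies left out, Atp5g3 and Atp5g1 made up 53.5% and 44.3% of the summed TPM of the 3 genes in the Poly(I:C) group and 54.8% and 42.6% in the saline group. Summed with their copies, Atp5g1 and Atp5g2 averaged 200 and 134 TPM over all libraries, beside 192 TPM for Atp5g3. These shares thus depend on how the copies are counted.

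**Figure D2:**
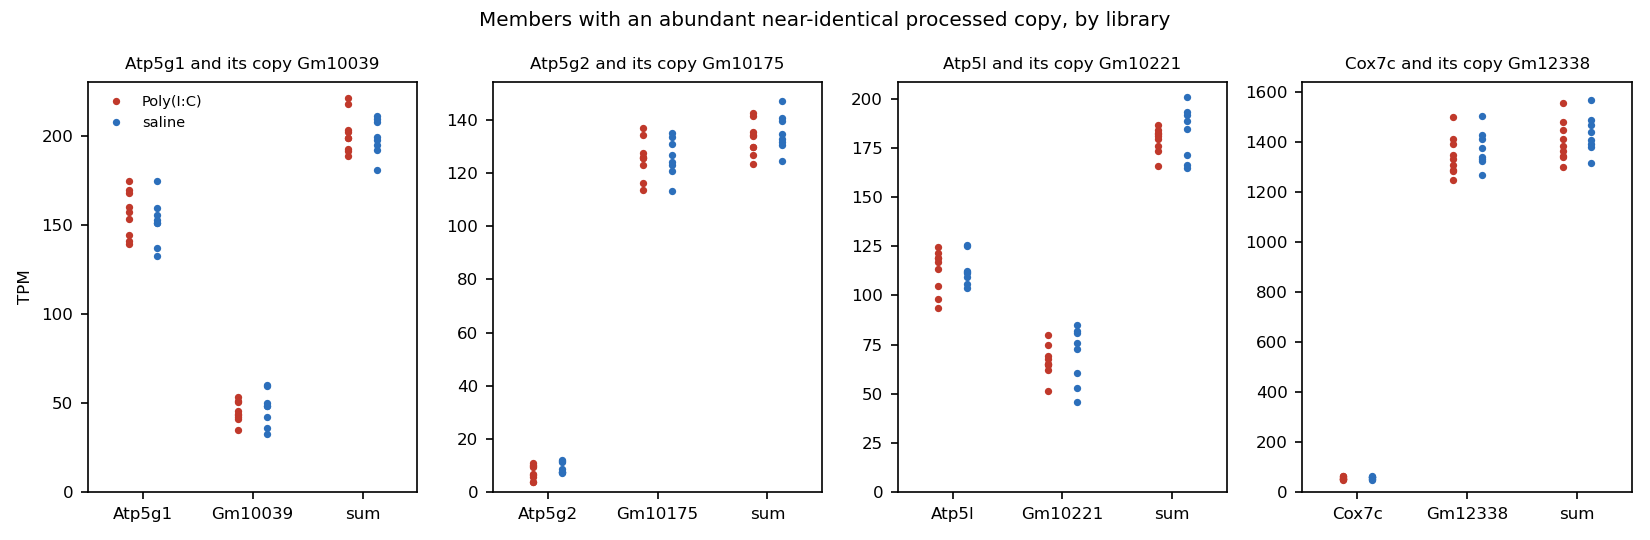
TPM on linear axes from 0 in each library (9 Poly(I:C) in red, 8 saline in blue) for Atp5g1, Atp5g2, Atp5l and Cox7c, for the most abundant near-identical copy of each, and for the sum of the pair. For Atp5g2 and Cox7c the copy carries over 90.9% of the sum in every library, and the groups overlap in every column.

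Several complex IV subunits have a second gene known from particular tissues, and the minor gene made up under 3% of its family in every library. Cox6a2, the heart and skeletal muscle isoform of subunit 6A, was the highest of these, from 22.8 to 30.9 TPM (median 26.8) in the Poly(I:C) group and from 21.4 to 30.5 TPM (median 25.4) in the saline group. It made up 2.43% ± 0.164 of Cox6a1 and Cox6a2 together and 2.33% ± 0.300, and the ranges overlapped. Cox4i2, a subunit 4 isoform known from lung and from brain pericytes, made up 0.442% ± 0.164 of its pair and 0.470% ± 0.094. Cox7a1, the muscle isoform of subunit 7A, made up 0.792% ± 0.235 of its trio with Cox7a2 and Cox7a2l and 0.857% ± 0.262.

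Cox6b2 and Cox7b2, isoforms known from testis, were also detected at low level. Cox6b2 ran from 2.14 to 4.45 TPM (median 2.55) in the Poly(I:C) group and from 1.29 to 4.06 TPM (median 2.40) in the saline group, which was 0.872% ± 0.241 of its pair and 0.722% ± 0.266. Cox7b2 reached 1 TPM in 9 of 17 libraries, was listed at 0 in Poly(I:C) replicate 5 and did not exceed 2.08 TPM. Cox6c2 reached 1 TPM in 3 libraries. Cox8b, the muscle isoform of subunit 8, was at most 0.99 TPM, and Cox8c was listed at 0 in all 17 libraries. Cox6c2, Cox8b and Cox8c were not tested. Of 5 markers of skeletal and heart muscle 1, Myh7, reached a mean of 1 TPM, and the creatine kinase gene Ckm was at most 0.12 TPM.

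**Figure D3:**
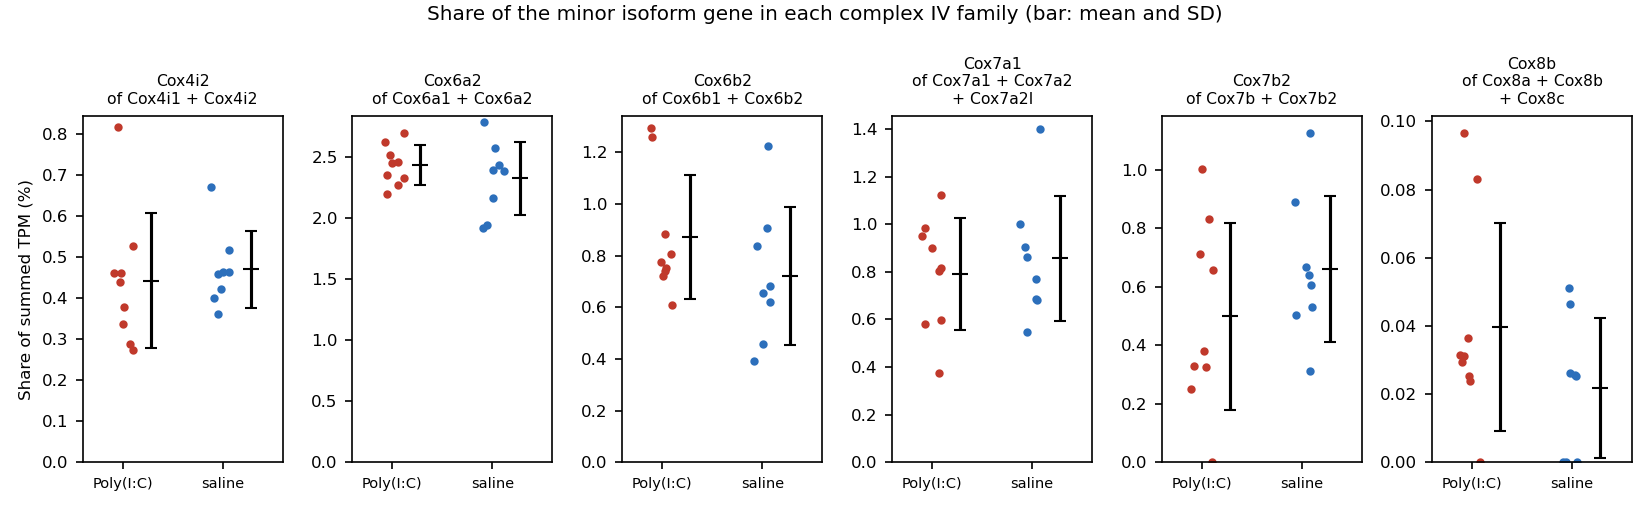
Share of the minor isoform gene in the summed TPM of its complex IV family, in percent on linear axes from 0, with 1 point per library and the mean and SD of each group beside the points. The 2 groups overlap in all 6 panels, and no minor gene exceeds 2.79% in any library.

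Cox6a2 is known in brain as a marker of parvalbumin interneurons, so its level was set against Pvalb, the calcium-binding protein gene that defines these cells. Across the 17 libraries Cox6a2 was higher where Pvalb was higher, with Pearson's r = 0.75 and Spearman's rho = 0.74 on log2(TPM + 1), and two-sided permutation p = 0.00021 and 0.00091 (adjusted p over 3 relations 0.00063 and 0.0027). Without the 2 libraries farthest from the median of Pvalb, Poly(I:C) replicate 7 and saline replicate 2, r was 0.72 and rho 0.65. Within the groups r was 0.68 in Poly(I:C) (exact permutation p = 0.036, n = 9) and 0.81 in saline (exact permutation p = 0.013, n = 8), and rho was 0.60 and 0.66 with exact permutation p of 0.097 and 0.085. In these bulk samples fewer cells of a type and less RNA per cell cannot be told apart. Of the 4 parvalbumin interneuron markers only Pvalb was set against Cox6a2. The share of all genes that follow Pvalb this closely is not given, so the relation is not shown to be particular to Cox6a2. Pvalb itself stood at 105 ± 16.8 TPM and 93.4 ± 9.83 TPM and was highest, at 145 TPM, in Poly(I:C) replicate 7.

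Neither relation to vascular cells passed the adjustment over all libraries. Cox7a1 and the mean of 9 pericyte and smooth muscle markers had r = 0.48 and rho = 0.47 (permutation p = 0.053 and 0.058, adjusted 0.079 and 0.087), and r = 0.26 without the 2 libraries farthest in the markers. Cox7a1 passed an adjusted p of 0.05 when saline replicate 1 was left out (r = 0.54, adjusted permutation p = 0.047). Cox4i2 and the same markers had r = -0.099 and rho = -0.059 (permutation p = 0.70 and 0.82), although Cox4i2 is known from pericytes. Cox4i2 stayed below 4.7 TPM in every library.

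**Figure D4:**
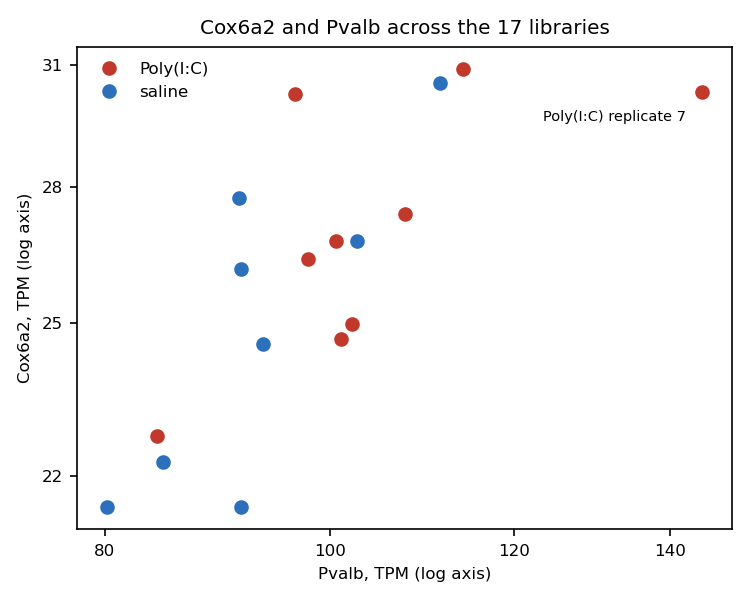
Cox6a2 against Pvalb, both in TPM on log axes, with 1 point for each of the 17 libraries (Poly(I:C) red, saline blue). Libraries with more Pvalb tend to have more Cox6a2 in both groups, and Poly(I:C) replicate 7 lies farthest right at 145 TPM of Pvalb.

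The comparison of the groups asked whether transcripts of these subunits differed in adult offspring after maternal Poly(I:C). In limma with Benjamini-Hochberg adjustment over 14144 genes, 0 of 45 tested members passed an adjusted p of 0.05, where 0 of all genes (0%) passed. The smallest adjusted p of a member was 0.537 and the groups overlapped in all 45, while 0.0283% of all tested genes had groups that did not overlap. At an unadjusted p below 0.05, 2 members were lower in the Poly(I:C) group, beside 7.85% of all genes, and 0 were higher, beside 0.898%. A Mann-Whitney test also gave 0 members past an adjusted p of 0.05 and 2 under an unadjusted p of 0.05, beside 7.75% of all genes. Among the 32 members of at least 100 TPM, no difference exceeded 0.17 on the log2 scale, and the farthest bound of any 95% confidence interval was 0.312 from 0.

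The members with an unadjusted p below 0.05 were both genes of ATP synthase. Atp5k, the membrane subunit e that takes part in joining ATP synthase into dimers, ran from 88.2 to 149 TPM (median 125) in the Poly(I:C) group and from 127 to 147 TPM (median 135) in the saline group. Of the Poly(I:C) libraries 6 lay below the lowest saline library, and 1, replicate 8, lay above the highest. The lowest values were 88.2 TPM in Poly(I:C) replicate 6 and 108 TPM in replicate 9, which were also the libraries with the lowest Atp5g2. In these libraries Atp5g2 was listed at 3.98 and 3.97 TPM and its copy Gm10175 at 125.7 and 125.8 TPM. How reads were divided between Atp5g2 and the copy was not tested. On the log2(TPM + 1) scale the difference of Atp5k was -0.17 ± 0.069 (SE, limma adjusted p = 0.537). Atp5a1 ran from 305 to 374 TPM (median 333) and from 327 to 409 TPM (median 352), and overlaps Haus1 (6.02 TPM) on the opposite strand. Its difference was -0.096 ± 0.041 (SE, limma adjusted p = 0.548), with 1 of 9 Poly(I:C) libraries above the saline median. Its highest value, 409 TPM, was that of saline replicate 7.

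Other members with the smallest p per direction in their complex also failed the adjustment in limma. So did Uqcrh and Atp5b, named as the most abundant of their complexes. In complex II Sdha differed by -0.046 ± 0.034 (SE), Sdhb by -0.039 ± 0.039 and Sdhc by 0.013 ± 0.042, the last below 0 when Poly(I:C) replicate 7 or saline replicate 6 was left out. In complex III the core subunit Uqcrc2 differed by -0.10 ± 0.057, the small subunit Uqcr11 by -0.048 ± 0.037, the hinge subunit Uqcrh by -0.043 ± 0.034 and the small subunit Uqcrq by 0.044 ± 0.034. In complex IV the X-linked subunit gene Cox7b, with 8 of 9 Poly(I:C) libraries above the median of saline, differed by 0.057 ± 0.030, Cox6a2 by 0.11 ± 0.073, Cox8a by -0.059 ± 0.032 and Cox7a2l by -0.046 ± 0.032. In complex V Atp5s differed by 0.11 ± 0.062, the small membrane protein gene Atp5mpl by 0.094 ± 0.054 and Atp5b by 0.021 ± 0.030. None of these intervals, at about 2 SE to either side, left out 0, and the adjusted p of the 45 members ran from 0.537 to 0.970.

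No member of an isoform pair passed the adjustment. Cox6a1 differed by 0.042 ± 0.031 (SE) beside Cox6a2, and Cox6b2 by 0.20 ± 0.135 beside -0.020 ± 0.042 for Cox6b1. Cox4i2 differed by -0.10 ± 0.127 beside -0.010 ± 0.030 for Cox4i1, Cox7a1 by -0.11 ± 0.149 beside 0.012 ± 0.037 for Cox7a2, and Cox7b2 by -0.22 ± 0.179 beside Cox7b. The small differences of Cox4i1 and Cox6b1 turned to 0.028 and 0.019 after median-of-ratios scaling, and that of Cox7a2 turned below 0 without Poly(I:C) replicate 1 or saline replicate 5.

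**Figure D5:**
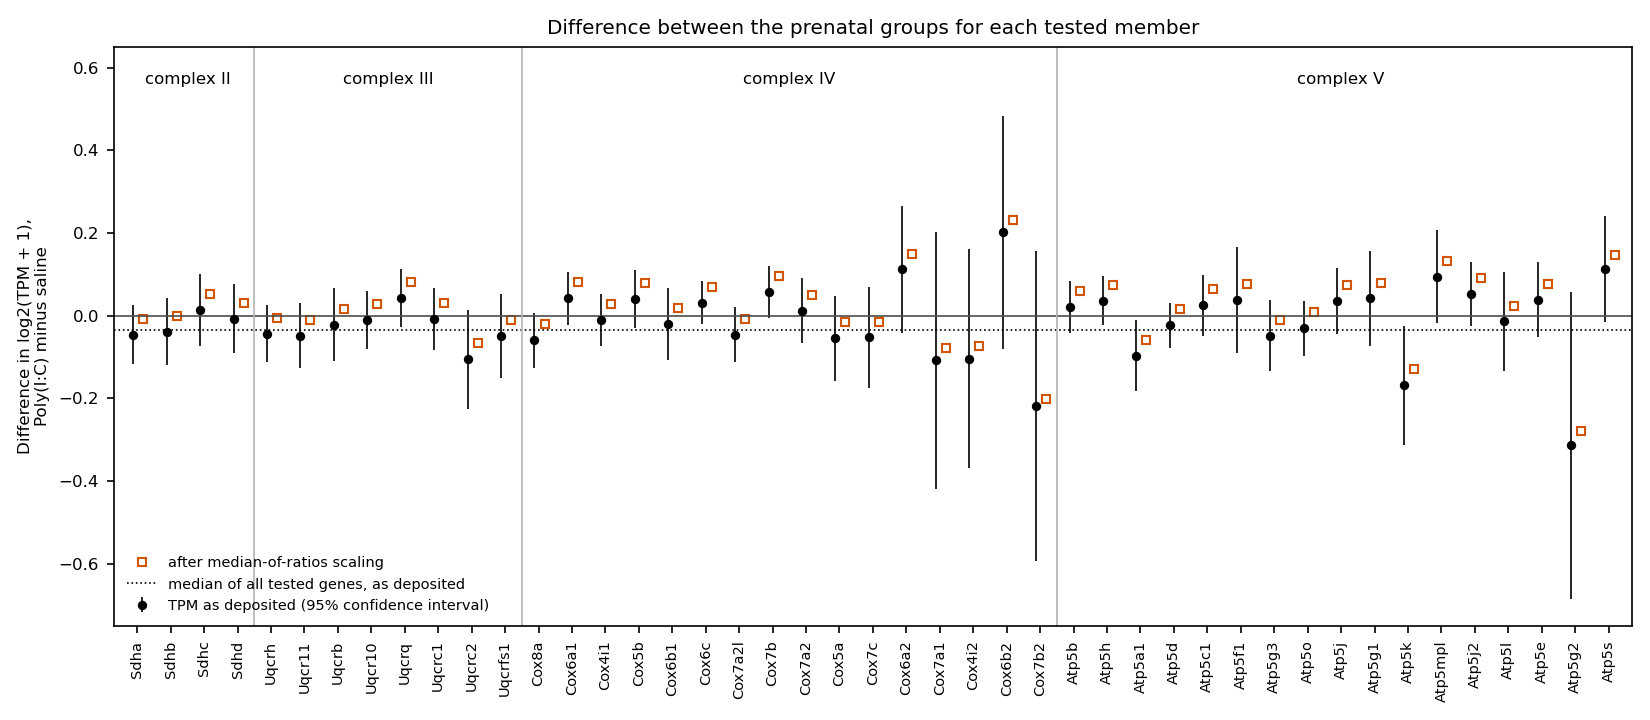
Difference in log2(TPM + 1), Poly(I:C) minus saline, for the 45 tested members by complex: black points with 95% confidence intervals are TPM as deposited, orange squares the same after median-of-ratios scaling, and the dotted line is the median of all tested genes as deposited. The intervals of Atp5k and Atp5a1 alone leave out 0 before adjustment, and scaling moves every member up, Cox7b2, the least abundant of those tested, by the least.

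The direction of the group as a whole depended on the scaling. As deposited, 26 of 45 members were lower in the Poly(I:C) group and their median log2 difference was -0.011, beside 71% of all tested genes lower and a median of -0.035. Median-of-ratios scaling sets the median gene ratio between libraries level. After it 17 of 45 members were lower with a median of 0.027, beside 50.2% of all genes and a median of -0.00027. By complex, 3 of 4 members of complex II, 7 of 8 of complex III, 9 of 16 of complex IV and 7 of 17 of complex V were lower as deposited, and 2, 4, 7 and 4 after that scaling. The 37 tested nuclear subunits of complex I had a median of -0.017 as deposited (22 lower) and 0.021 after scaling (13 lower).

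After median-of-ratios scaling 12 of 45 members were higher in the Poly(I:C) group at an unadjusted p below 0.05, beside 3.99% of all genes, and 0 were lower, beside 3.35%. Of the 37 tested nuclear subunits of complex I, 6 were higher and 2 lower by the same measure. None of the 12 passed the adjustment, the smallest adjusted p of a member being 0.591. They were Cox5b, Cox6a1, Cox6a2, Cox6c and Cox7b of complex IV and Atp5b, Atp5c1, Atp5h, Atp5j, Atp5j2, Atp5mpl and Atp5s of complex V, and none came from complexes II or III. All members were measured in the same libraries, so the 12 are not independent. The count was 7 without Poly(I:C) replicate 1 (beside 3.75% of all genes), 6 without saline replicate 1 (3.32%) and 7 without replicate 7 of both groups (2.86%). Rescaled instead without mitochondrial genes and their copies, 9 members were higher and 1, Atp5a1, lower at an unadjusted limma p below 0.05. Of the 14121 genes tested there, 373 were higher and 664 lower by that measure.

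Among 47 other genes of the pathway, a list of assembly factors, electron carriers and regulators, 46 were tested and 0 passed in limma. Of the 46, 21 were lower and 25 higher as deposited, with 0.0035 as their median log2 difference, and 13 were lower after median-of-ratios scaling. Cyc1, the cytochrome c1 subunit of complex III, stood at 117 ± 6.05 TPM and 116 ± 5.22 TPM. The smallest p in each direction belonged to complex IV assembly. Cox15 and Lrpprc, which serve heme A synthesis and the stability of mitochondrial mRNA, differed by -0.16 ± 0.065 and -0.12 ± 0.061 (SE). The assembly gene Coa4 and the copper chaperone gene Cox17 differed by 0.16 ± 0.083 and 0.063 ± 0.042. Of the biogenesis regulators, Ppargc1a stood at 23.3 ± 1.97 TPM and 23.2 ± 3.09 TPM and Nrf1 at 8.09 ± 1.01 and 8.08 ± 0.907 TPM.

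The mitochondrial genome encodes the partner subunits of complexes III, IV and V, and 5 of these 6 transcripts were above saline in their deposited values. The differences were 0.42 ± 0.090 (SE) for mt-Co2 and 0.25 ± 0.090 for mt-Atp6, with limma adjusted p of 0.366 and 0.486, and -0.015 ± 0.032 for mt-Cytb, which was 0.024 after median-of-ratios scaling. As listed, mt-Co2 averaged 1009 TPM, mt-Co3 581 TPM and mt-Atp6 2420 TPM over all libraries, beside 45291 TPM for mt-Co1 and 60640 TPM for mt-Atp8. These transcripts also have near-identical nuclear copies and were not summed with them. How reads were divided between them was not tested.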

How the data were processed

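RNA sequencing of 17 libraries was used as deposited: 1 table in which the authors give TPM values per gene with 2 decimals. Per the submitters' processing notes the tools include RSEM 1.2.31, STAR 2.5.1b and Trim Galore 0.4.0, and the build is mm10. Libraries were stranded and poly(A)-selected with 25 M single-end reads of 100 bp, per the labels' protocols; for the annotation, strand setting and filters, the sources used here give nothing. RSEM splits reads between near-identical copies. TPM keeps no depth, so the depth of each library is unknown and no count test, interval of counts or floor was used. TPM is relative, so other scalings were run. No libraries held identical values.

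Columns were tied to samples by their descriptions. Symbols matched 48058 of 48440 gene identifiers with the version left off. The 14144 genes that reached 1 TPM in 8 or more libraries were fitted in limma 3.58.1 (R 4.3.3, eBayes with trend) on log2(TPM + 1). Tests were two-sided, and Benjamini-Hochberg adjustment ran over all of these genes and a threshold of 0.05. A fold on this scale understates changes of low genes. The fit was tested on simulated data. The members, lists and tests were chosen with earlier results of these data known. Members named with differences are, per complex and direction, the 2 of smallest p, the most abundant of each complex, and isoform pairs; Cox7c, Atp5g1, Atp5g2 and Atp5l were added after their values were seen. The rule also takes the 2 genes with the smallest p in each direction from the other pathway genes and from the mitochondrial transcripts; only 1 of the latter was lower. Ndufa4l2 was left out of the complex I genes with its paralog Ndufa4.

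Relations used 100000 permutations, exact within groups. Copies were sought with BLAST 2.17.0 among GENCODE M21 transcripts (GRCm38, the assembly mm10 names) at 97% identity over at least 100 bases, and counted from a mean of 1 TPM. Of the members, 7 had such a copy, and 7 overlap a gene of at least 1 TPM on the opposite strand. Alternatives were pseudocounts of 0.5 and 0.1, no filter, a minimum of 5 TPM, median-of-ratios scaling, rescaling without mitochondrial genes, the replicate number as a block, a rank test and leaving out libraries. Rescaling also without mitochondrial copies, summing members with their copies, and leaving out libraries after median-of-ratios scaling were chosen after seeing the data. Scripts ran in Python 3.11.15 with scipy 1.17.1, numpy 2.4.6, matplotlib 3.10.9 and pandas 2.3.3.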

Additional observations from a re-analysis of the deposited data

Results flagged for a closer look

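In 64 groups of values checked, 4 held a library far from the rest of its group by Dixon's 95% criterion, where chance gives about 1 in 20. Saline replicate 7 had the highest Sdhb, 132.55 TPM where the next saline library had 118.94 TPM, and the highest Atp5a1, 408.67 TPM where the next had 363.74 TPM. Poly(I:C) replicate 5 had the lowest Cox4i1, 570.26 TPM where the next Poly(I:C) library had 603.11 TPM, and the highest Cox4i2, 4.69 TPM where the next had 3.22 TPM. Saline replicate 7 had the lowest share of mitochondrial TPM of all libraries and Poly(I:C) replicate 5 the highest, and the part of this share in the 4 values was not tested.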

How the results depend on the processing

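The count of members past an adjusted p of 0.05 was 0 under every alternative run, those after median-of-ratios scaling included, with a smallest member adjusted p of 0.346 over all of them. The median member difference stayed within the spread between libraries. Over all genes as deposited, 2 passed with the replicate block and 0 to 1 over left-out libraries (1 without saline replicate 4). After median-of-ratios scaling 3 passed without saline replicate 4, 1 each without saline replicate 2, saline replicate 7, Poly(I:C) replicate 9 and replicate 7 of both groups, and 0 without any other library. By the Mann-Whitney test 0 genes passed, and 1096 had an unadjusted p below 0.05. The shared replicate numbers do not pair the samples: deviations of same-numbered libraries correlated between -0.22 and 0.082, 0 of 8 above 0.1, and 0 of 8 correlated best with their own number. The replicate block, on replicates 1 to 8, left 0 members called.

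Of 28 named members 23 kept their sign in the 27 alternatives run for single members. After median-of-ratios scaling Cox4i1 was 0.028, Cox6b1 0.019, Atp5l 0.025 and mt-Cytb 0.024. Rescaled without mitochondrial genes the Cox4i1 log2 difference was 0.0025, and without their copies too Cox4i1 was 0.015, Cox6b1 0.0057 and Atp5l 0.012. Over left-out libraries the differences ran for Sdhc from -0.0078 to 0.037, for Cox4i1 from -0.023 to 0.0054, for Cox6b1 from -0.037 to 0.0048, for Cox7a2 from -0.0029 to 0.031, for Atp5l from -0.033 to 0.019 and for mt-Cytb from -0.026 to 0.0012. The relation of Cox4i2 to pericyte markers ranged from -0.21 to 0.014 over left-out libraries and was 0.019 without replicate 7 of both groups, and that of Cox7a1 ranged from 0.36 to 0.54. The count of 12 higher members after median-of-ratios scaling ranged from 6 to 13 over left-out libraries, where 2.89% to 4.8% of all genes were higher, and was 7 without replicate 7 of both groups, beside 2.86%. Fewer samples enter those fits, and the cause of the other changes was not tested.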
